A study of Bos taurus with 14 samples.

Results

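MiR-142, miR-150, miR-223 and miR-342 are miRNAs of the haematopoietic lineage, and here they were followed in the blood of dairy cows. MiRNAs are short RNAs that bind to messenger RNAs and lower their translation or stability. MiR-142 is made in nearly all white blood cells and yields a mature strand from each arm of its hairpin, miR-142-5p and miR-142-3p. MiR-223 is abundant in neutrophils and other myeloid cells, whereas miR-150 and miR-342 are typical of lymphocytes, so the ratio of miR-223 to either is often read as myeloid against lymphoid RNA. The members were taken by name, bta-miR-142-3p, bta-miR-142-5p, bta-miR-150, bta-miR-223 and bta-miR-342, which are 5 of the 932 bovine (bta) and human (hsa) names listed over all libraries. All 5 were listed in every one of the 14 libraries.

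The libraries came from 4 ruminally cannulated, non-lactating adult Holstein cows, each sampled first on a forage diet (FD, 0% concentrate) and again in the first week of a high-grain diet (HG, 65% concentrate), the study's model of subacute ruminal acidosis. Plasma was sequenced from cows 1 to 4 on both diets (8 libraries), and leucocytes, taken as the buffy coat of centrifuged blood, from cows 1, 3 and 4 on both diets (6 libraries). The diets followed each other in every cow, so diet and time cannot be told apart. The sample types were extracted with different kits, so kit and sample type cannot be told apart either.

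Plasma libraries held 376589 to 4464702 reads assigned to miRNAs, and leucocyte libraries 21764579 to 66070770. The erythrocyte miRNAs miR-451, miR-144 and miR-486, with their human names, took 35.4% to 48.9% of the counts in leucocytes and 7.95% to 23.6% in plasma. Of the marker lists, the summed level of 4 vascular and platelet miRNAs was 28783 to 74277 CPM (counts per 1000000 adjusted counts) in plasma and 644 to 3252 CPM in leucocytes. The liver marker miR-122 was at 6662 to 82795 CPM in plasma and 19.4 to 89.9 CPM in leucocytes. The part of these cells in the results below was not tested, and in such bulk samples fewer cells of a type and less RNA per cell cannot be told apart.

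The deposited positions are on the bovine build UMD3.1. MiR-142-3p was placed at chr19:9527359-9527380 and miR-142-5p at chr19:9527320-9527339, both on the minus strand. MiR-150 was placed at chr18:56407863-56407885 and miR-223 at chrX:99936370-99936391, both on the minus strand, and miR-342 at chr21:66706908-66706932 on the plus strand. In these files the 5p arm had the lower position in all 25 minus-strand hairpins that list both arms, as it did in 35 of 36 on the plus strand. A 5p arm on the minus strand should lie at the higher position, so the minus-strand positions hold for the hairpin and not to the base.

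Levels are given as CPM of the multiple-mapping adjusted counts, which share out each multiply matching read over its names. For both arms of miR-142 and for miR-150, the adjusted count was 0.5 of the undivided count in all 14 libraries, whereas for miR-223 and miR-342 the share was 1. The human name hsa-miR-150-5p had the same read count as bta-miR-150 in 11 of 14 libraries and differed by at most 3 reads in the others. For the arms of miR-142 no second name was seen in the files used here, so their CPM may lie anywhere up to the level of the undivided counts. No other arm of miR-150, miR-223 or miR-342 was listed. The division cancels in a comparison of diets or sample types, and ratios between members are therefore given from the undivided counts.

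**Figure D1:**
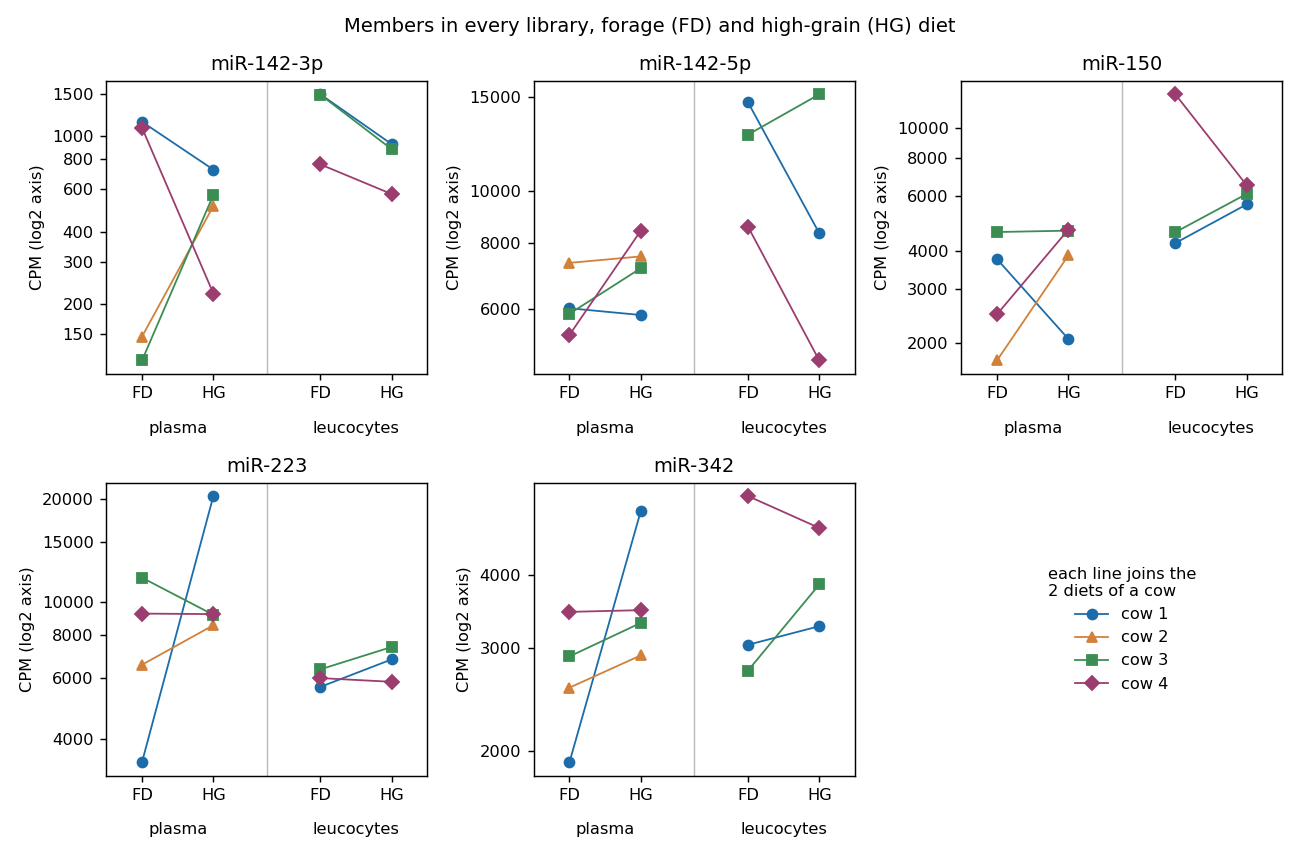
Level of each member in every library in CPM of adjusted counts, on a log2 axis that differs between panels, with a line joining the diets of each cow. MiR-142-3p fell along all 3 leucocyte lines, while in plasma cow 1 rose from 3415 to 20381 CPM for miR-223.

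In leucocytes, miR-142-3p was lower on HG than on FD, and it was the one member of 5 that passed the test. Its level was 1491, 1486 and 762 CPM on FD in cows 1, 3 and 4, and 924, 880 and 573 CPM on HG. All 3 cows went down, but the diets overlapped, since cow 4 was lower on FD than cows 1 and 3 were on HG. The log2 fold change was -0.61 (SE 0.124, n = 3 cows), a 1.52-fold lower level, with an edgeR adjusted p of 0.0313. Of the 782 names tested in leucocytes, 1.92% were called, 3 names (0.384%) higher and 12 names (1.53%) lower on HG. The call rested on the scaling, the filter and single cows. The log2 fold change stayed between -0.88 and -0.49 over all 14 alternatives, and 6 of them kept the call. The study's own DESeq2 model of cow and diet also lists miR-142-3p as lower on HG, at an FDR under 0.05. Here the edgeR adjusted p was 0.0609 with DESeq2 size factors, 0.146 without erythrocyte names in the scaling and 0.884 without the cow block. It was 0.366 without cow 1 and 0.992 without cow 3, but 2.5e-06 without cow 4. The fit without cow 4 called 102 names in all, against 15 with all cows. Erythrocyte miRNAs took 35.4% to 47.4% of the leucocyte counts on FD and 38.8% to 48.9% on HG, and the 4 vascular and platelet miRNAs summed to 680, 1514 and 3252 CPM on FD in cows 1, 3 and 4 and to 644, 880 and 1823 CPM on HG. The latter were thus also lower on HG in 3 of 3 cows, and the part of either list in the fall of miR-142-3p was not tested.

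MiR-142-5p, the more abundant arm, was at 14665, 12747 and 8580 CPM on FD in cows 1, 3 and 4 and at 8335, 15168 and 4815 CPM on HG. It was lower on HG in cows 1 and 4 and higher in cow 3. Its log2 fold change was -0.46 (SE 0.188), with an edgeR adjusted p of 0.270. Scaling to miR-103 and miR-107, the internal standards of the study's qPCR, gave -0.73 with an adjusted p of 0.0268. That scaling called 50 leucocyte names in all, against 15 with TMM.

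MiR-150 was at 4235, 4593 and 12876 CPM on FD in cows 1, 3 and 4, and at 5656, 6118 and 6520 CPM on HG. Cow 4 on FD stood above the other 5 leucocyte libraries, and it was the one cow in which the level went down on HG. The log2 fold change was -0.03 (SE 0.255, edgeR adjusted p = 0.979). Without cow 4 it was 0.41 with an adjusted p of 0.0117, so both the sign and the call turned on that cow. The fit without cow 4 called 102 leucocyte names in all, against 15 with all cows, so that call is not particular to miR-150.

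MiR-342, the other lymphoid member, was at 3043, 2748 and 5468 CPM on FD in cows 1, 3 and 4 and at 3275, 3860 and 4822 CPM on HG. As for miR-150, cow 4 was highest on FD and the one cow to go down. For miR-342 the log2 fold change was 0.15 (SE 0.140, edgeR adjusted p = 0.692), and it was -0.12 when scaled to miR-103 and miR-107.

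The myeloid member miR-223 was the steadiest of the 5 in leucocytes, with a 1.31-fold span over the 6 libraries. It was at 5661, 6369 and 6005 CPM on FD in cows 1, 3 and 4 and at 6811, 7402 and 5857 CPM on HG. The diets overlapped, with cows 1 and 3 higher and cow 4 lower on HG, whereas after TMM scaling 3 of 3 cows were higher, at 0.28, 0.19 and 0.0092 on the log2 scale. For miR-223 the log2 fold change was 0.16 (SE 0.125, edgeR adjusted p = 0.599), and it was -0.11 when scaled to miR-103 and miR-107.

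In plasma, no member passed the test, and neither did any of the 538 names (0% called). At an unadjusted p under 0.05 there were 55 names in plasma, and the DESeq2 Wald test called 12. The standard errors of the members were 0.415 to 0.829 on the log2 scale, against 0.124 to 0.255 in leucocytes.

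**Figure D2:**
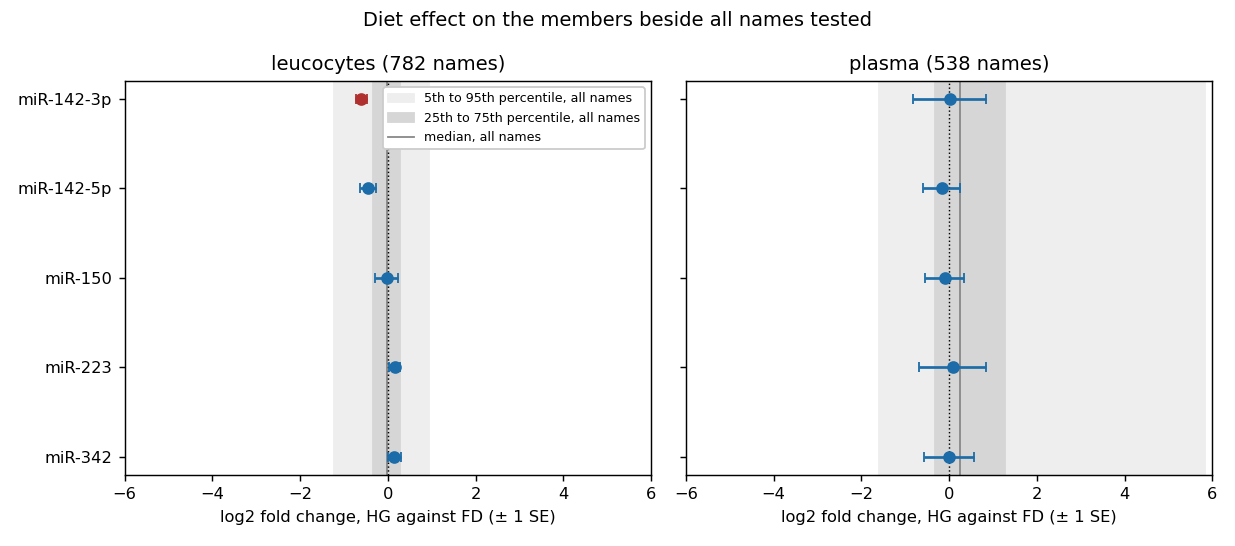
Fitted log2 fold change of each member on HG against FD with 1 standard error, in leucocytes (left) and plasma (right), over bands for all names tested. Red marks the one adjusted p under 0.05, miR-142-3p in leucocytes at -0.61, and the 5 plasma values lie between -0.17 and 0.08.

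MiR-142-3p varied most in plasma, with a 9.87-fold span. On FD it was at 1146, 146, 116 and 1083 CPM in cows 1 to 4, and on HG at 724, 511, 569 and 221 CPM. Cows 1 and 4 went down and cows 2 and 3 went up, and the log2 fold change was 0.02 (SE 0.829, edgeR adjusted p = 0.994). These levels rested on 304 to 4938 undivided reads, against 26938 to 169332 in leucocytes.

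MiR-142-5p, by contrast, had the smallest span in plasma, 1.57-fold. It was at 6031, 7336, 5890 and 5377 CPM on FD in cows 1 to 4 and at 5858, 7542, 7169 and 8431 CPM on HG. With TMM, the log2 fold change was -0.17 (SE 0.415, edgeR adjusted p = 0.957), and it was 0.23 with library size only.

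MiR-150 was at 3757, 1760, 4599 and 2484 CPM on FD in cows 1 to 4, and at 2067, 3860, 4646 and 4683 CPM on HG. Only cow 1 was lower on HG in CPM. The fit gave a log2 fold change of -0.10 (SE 0.447, edgeR adjusted p = 0.960) with TMM and 0.31 with library size only.

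MiR-223 was at 3415, 6568, 11782 and 9258 CPM on FD in plasma of cows 1 to 4, and at 20381, 8563, 9185 and 9227 CPM on HG. Cow 1 was the lowest library on FD and the highest on HG, and its FD library was the shallowest of all, with 998 reads of miR-223. The log2 fold change was 0.08 (SE 0.765, edgeR adjusted p = 0.984), and it was -0.69 without cow 1.

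MiR-342 was at 1916, 2570, 2906 and 3465 CPM on FD in plasma of cows 1 to 4 and at 5158, 2919, 3318 and 3488 CPM on HG. In CPM it was higher on HG in 4 of 4 cows, whereas after TMM scaling it was higher in 1 of 4. The log2 fold change was -0.01 (SE 0.565, edgeR adjusted p = 0.992) with TMM and 0.44 with library size only, so its direction followed the scaling. The median of all plasma names was 0.25 with TMM and 0.67 with library size only.

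The difference between the diet effects, leucocytes minus plasma, was not called for any member or for any of the 800 names tested over all 14 libraries (0% called). There were 59 names at an unadjusted p under 0.05, and the DESeq2 Wald test called 28. For the members the difference was -0.08 (SE 1.01) for miR-142-3p, -0.10 (SE 0.552) for miR-142-5p, 0.27 (SE 0.503) for miR-150, 0.23 (SE 0.764) for miR-223 and 0.31 (SE 0.561) for miR-342, on the log2 scale, each with an edgeR adjusted p of 1. These values come from the single fit of all 14 libraries, in which both sample types share the TMM scaling and the cow terms. They are not the differences between the separate fits, which gave -0.61 in leucocytes and 0.02 in plasma for miR-142-3p. For miR-142-5p the separate fits gave -0.46 and -0.17. With an SE of 1.01, the lower miR-142-3p in leucocytes is not shown to differ from its value in plasma.

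Ratios between members do not depend on how libraries are scaled. In plasma, the ratio of miR-223 to miR-150 was 0.455, 1.87, 1.28 and 1.86 on FD in cows 1 to 4 and 4.93, 1.11, 0.988 and 0.985 on HG. It fell in cows 2, 3 and 4 and rose in cow 1. The mean log2 difference was 0.35 ± 2.07 (SD, n = 4 cows, exact two-sided sign-flip permutation p = 1). Without cow 1 it was -0.68.

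In leucocytes, the ratio of miR-223 to miR-150 was 0.668, 0.693 and 0.233 on FD in cows 1, 3 and 4 and 0.602, 0.605 and 0.449 on HG. Cow 4 was the lowest on both diets, and the one cow to rise. The mean log2 difference was 0.20 ± 0.65 (SD, n = 3 cows, exact p = 1).

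The ratio of miR-223 to miR-342 was 1.78, 2.56, 4.05 and 2.67 on FD in plasma of cows 1 to 4 and 3.95, 2.93, 2.77 and 2.65 on HG. In leucocytes of cows 1, 3 and 4 it was 1.86, 2.32 and 1.10 on FD and 2.08, 1.92 and 1.22 on HG. Cow 4 was again the lowest leucocyte sample on both diets. The mean log2 difference between the diets was 0.20 ± 0.71 in plasma (SD, n = 4, exact p = 0.75) and 0.01 ± 0.25 in leucocytes (SD, n = 3, exact p = 1).

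The lymphoid members kept no fixed ratio to each other in plasma. MiR-150 to miR-342 was 3.92, 1.37, 3.17 and 1.43 on FD in cows 1 to 4 and 0.802, 2.64, 2.80 and 2.69 on HG, with cow 1 on HG below all others. In leucocytes it was 2.78 to 4.71 on FD and 2.70 to 3.46 on HG. The mean log2 difference between diets was -0.15 ± 1.52 in plasma (SD, n = 4, exact p = 0.875) and -0.19 ± 0.56 in leucocytes (SD, n = 3, exact p = 0.75).

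The arms of miR-142 come from the same hairpin, and in all 14 libraries the 3p arm had fewer reads than the 5p arm. The ratio of miR-142-3p to miR-142-5p in plasma was 0.190, 0.0199, 0.0197 and 0.201 on FD in cows 1 to 4 and 0.124, 0.0678, 0.0794 and 0.0262 on HG. In leucocytes of cows 1, 3 and 4 it was 0.102, 0.117 and 0.0887 on FD and 0.111, 0.0581 and 0.119 on HG. Plasma on FD thus held both the lowest and the highest ratios of the arms. The mean log2 difference between diets was 0.05 ± 2.32 in plasma (SD, n = 4, exact p = 1) and -0.15 ± 0.75 in leucocytes (SD, n = 3, exact p = 1).

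The ratio of miR-223 to miR-142-5p in leucocytes was 0.193, 0.250 and 0.350 on FD in cows 1, 3 and 4 and 0.409, 0.244 and 0.608 on HG. It rose in cows 1 and 4 and fell slightly in cow 3, with a mean log2 difference of 0.62 ± 0.58 (SD, n = 3, exact p = 0.5). In plasma the mean log2 difference was 0.42 ± 1.54 (SD, n = 4, exact p = 0.875). Over 20 tests of ratios, every Benjamini-Hochberg adjusted p was 1. The smallest p the exact test allows is 0.125 for 4 cows and 0.25 for 3, so no ratio could pass 0.05.

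**Figure D3:**
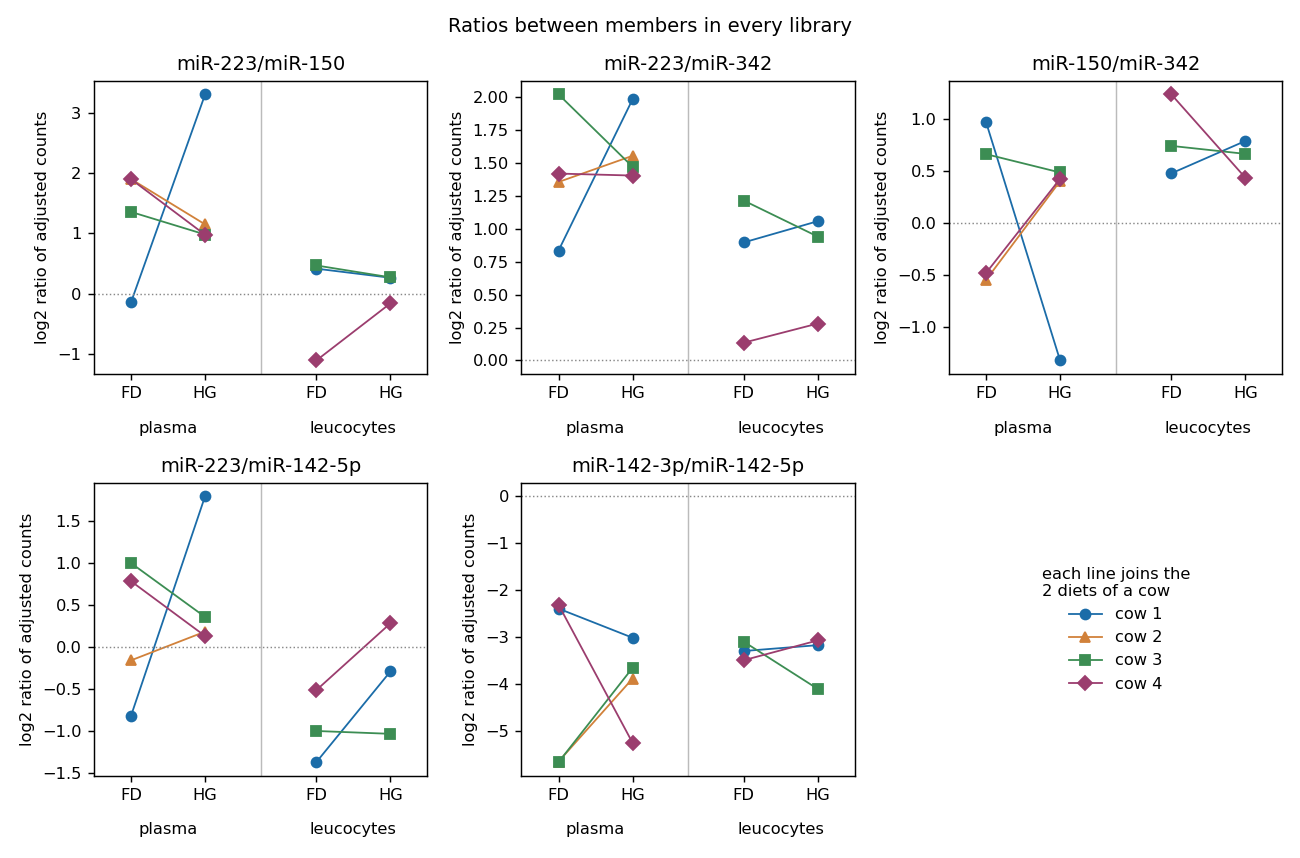
Log2 ratio of the adjusted counts of members in every library, with a line joining the diets of each cow. Ratios with miR-150 or one arm of miR-142 lie 1 log2 unit away from those of undivided counts, and in plasma cow 1 moves against the other cows in miR-223/miR-150.

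Between sample types, the ratio of miR-223 to miR-150 on HG was lower in leucocytes than in plasma in 3 of 3 cows, and the groups did not overlap. The mean log2 difference was -1.62 ± 1.24 (SD, n = 3, exact p = 0.25, the smallest possible). The ratio of miR-223 to miR-342 on HG was also lower in leucocytes in 3 of 3 cows without overlap, at -0.86 ± 0.30 (SD, n = 3, exact p = 0.25). On FD the same differences were -1.11 ± 1.79 and -0.68 ± 0.68 (SD, n = 3, exact p = 0.5 for each), with 2 of 3 cows lower in leucocytes. Other ratios also went one way in 3 of 3 cows, but with overlap. These were miR-223/miR-142-5p on FD (-1.28 ± 0.72) and miR-150/miR-342 on HG (0.77 ± 1.17), each with an exact p of 0.25. How often groups of 3 libraries do not overlap for other pairs of names was not computed.

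By rank among the undivided read counts of a library, miR-142-5p was 10th to 25th in leucocytes and 21st to 30th in plasma. MiR-150 ranked 14th to 28th in leucocytes and 31st to 61st in plasma. These ranks did not overlap, whereas its CPM did on FD (4235 to 12876 against 1760 to 4599) though not on HG. The share of all names without overlap was not computed. MiR-223 ranked 29th to 37th in leucocytes and 18th to 61st in plasma. MiR-342 ranked 41st to 51st against 49th to 79th, and miR-142-3p 49th to 77th against 69th to 151st.

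With TMM scaling, 2 of 5 members were called higher in leucocytes than in plasma on FD and 3 of 5 on HG. In the same fit 33.0% of all 800 names were called on FD (18.4% higher) and 34.6% on HG (18.8% higher). MiR-142-5p had a log2 fold change of 1.65 (SE 0.414, edgeR adjusted p = 0.0122) on FD and 1.55 (SE 0.405, adjusted p = 0.0133) on HG. Both calls were lost without cow 3 (adjusted p = 0.0745 and 0.138), and the one on HG with library size only (0.33, adjusted p = 0.511). In CPM, cow 4 on HG was lower in leucocytes, at 0.571 times its plasma level.

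MiR-150 had 1.63 (SE 0.365, edgeR adjusted p = 0.00766) and 1.90 (SE 0.373, adjusted p = 0.00403). On FD its CPM in leucocytes was 1.13, 0.999 and 5.18 times that in plasma in cows 1, 3 and 4. In CPM without TMM scaling the difference thus lay mainly in cow 4. Without that cow the log2 fold change with TMM was still 1.17, but the call was lost (adjusted p = 0.0850). With library size only neither diet was called (adjusted p = 0.0967 and 0.340).

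MiR-342 was called on HG at 1.22 (SE 0.402, edgeR adjusted p = 0.0355) and not on FD at 0.91 (SE 0.412, adjusted p = 0.107). The call on HG was lost without cow 2 (adjusted p = 0.0686), cow 3 (0.168) or cow 4 (0.189), and with library size only the value was 0.0054 (adjusted p = 0.996). On FD it was called without cow 1 (1.37, adjusted p = 0.00757) and with DESeq2 size factors (1.36, adjusted p = 0.00633). MiR-142-3p, at 1.75 (SE 0.734) and 1.67 (SE 0.744), had edgeR adjusted p of 0.0842 and 0.106. On FD the cows differed widely, at 1.30, 12.8 and 0.703 times the plasma CPM in cows 1, 3 and 4. The log2 fold change there was 0.94 without cow 3 (adjusted p = 0.387) and 2.92 without cow 4 (adjusted p = 0.0189). MiR-223 was at 0.03 (SE 0.560) and 0.26 (SE 0.546), with adjusted p of 0.973 and 0.731.

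These signs depended on the scaling. The median of all names was 1.63 on FD and 0.84 on HG with TMM, and -0.21 and -1.54 with scaling to miR-103 and miR-107, under which all 5 members had negative log2 fold changes on both diets. MiR-223 was then called lower, at -1.94 (edgeR adjusted p = 0.0251) on FD and -2.14 (adjusted p = 0.0128) on HG. MiR-342 was also called lower on HG, at -1.19 (edgeR adjusted p = 0.0403), whereas TMM called it higher there. On FD miR-342 was not called under this scaling, at -1.05 (adjusted p = 0.0828). Relative to the median of all names, miR-223 lay below it in 16 of 16 settings on FD and in 15 of 16 on HG. The other 4 members lay above the median in all 16 settings on HG. These settings reuse the same libraries and are not separate tests. With TMM the members stood near the middle of all names. On HG miR-223 was at percentile 42.12 and the other 4 at 53.25 to 60.88. On FD miR-223 was at percentile 34, miR-342 at 44 and the rest at 50 to 51. On FD, miR-342 lay below it in 14 of 16, miR-150 in 8, miR-142-5p in 5 and miR-142-3p in 4. With filterByExpr the median was lower, at 0.80 on FD and 0.27 on HG, and the place of the members moved with it. MiR-223 was then -0.05 from the median on FD and 0.43 above it on HG. MiR-342 was 0.82 above it on FD, and 0.64 above it with the DESeq2 Wald test (median 0.73).

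**Figure D4:**
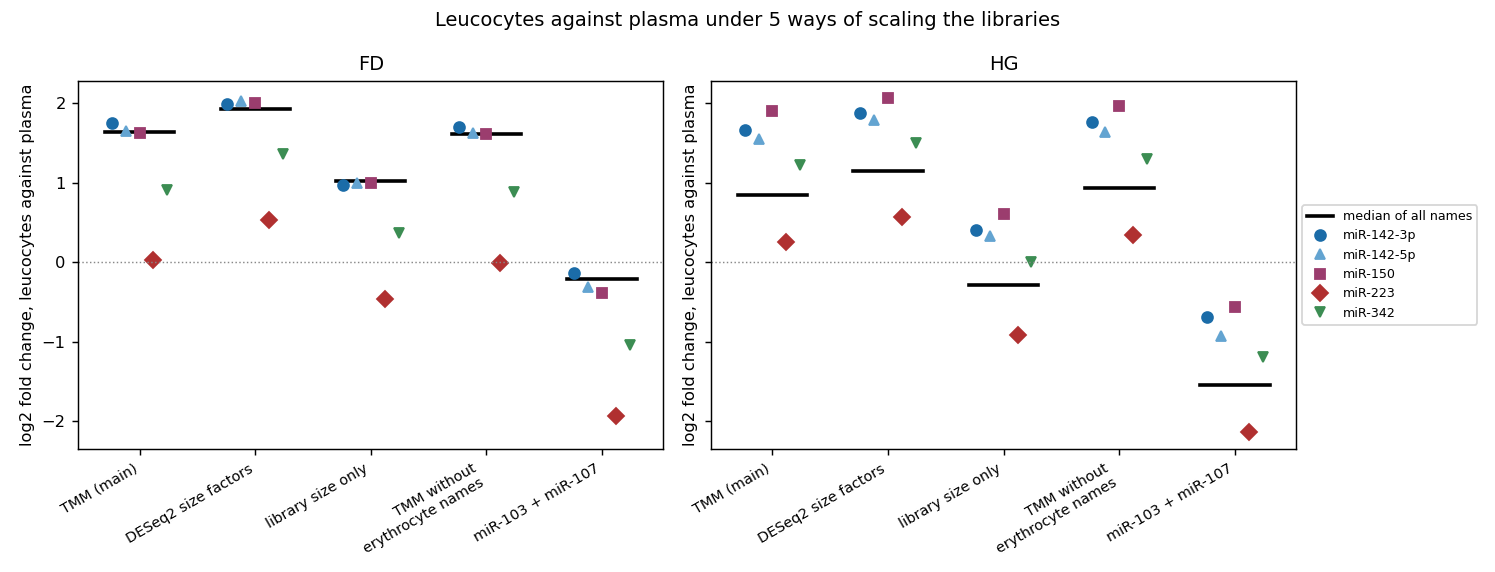
Log2 fold change of each member, leucocytes against plasma, under 5 ways of scaling the libraries, on FD (left) and HG (right), with a bar for the median of all names. The values and the median shift together, and miR-223 is the lowest member in each, at 0.03 with TMM, 0.53 with DESeq2 size factors and -1.94 with miR-103 and miR-107 on FD.

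The pattern of each member over the 14 libraries was compared with that of the other names with at least 10 reads in every library, 255 in all. The measure was the root mean square difference of centred log2 CPM, which is a description, since all names share the libraries and their depth. Closest to miR-223 were miR-222 (0.310) and miR-26b with its human name (0.357), against a median of 1.21 over names. Closest to miR-342 were miR-186 (0.323), miR-505 (0.355) and miR-425-5p (0.366), and closest to miR-150 were miR-16a (0.429) and miR-25 with its human name (0.453). MiR-142-5p was closest to miR-30e-5p (0.486), miR-186 (0.486) and hsa-miR-340-5p (0.493). MiR-142-3p was closest to miR-19a with its human name (0.552) and miR-362-5p (0.736). Its own partner arm was 42nd at 1.06. Among the members, miR-342 was closer to the myeloid miR-223 (0.527) than to the lymphoid miR-150 (0.657). For miR-150 the closest member was miR-342.

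Of 30 other blood-cell miRNAs, 2 passed the test in leucocytes, both lower on HG, and 28 did not, beside 1.92% of all names called and 1.53% called lower. At an unadjusted p under 0.05 there were 12 of the 30, some lower and others higher on HG, beside 117 of all 782 names. The 2 that passed the adjusted test were miR-146a, a brake on Toll-like receptor signalling, and miR-27a-3p. MiR-146a was at -0.84 (SE 0.140, edgeR adjusted p = 0.00895) and miR-27a-3p at -0.64 (SE 0.135, adjusted p = 0.0313). MiR-146a kept its call in 12 of 14 alternatives and miR-27a-3p in 7. Both calls were lost without cow 3 (adjusted p = 0.992 for each) and without the cow block (0.728 for each), while with 1 cow left out the log2 fold changes stayed at -0.97 to -0.72 and at -0.75 to -0.54. The median log2 fold change of the 30 was -0.06, beside -0.01 over all names and -0.03 over the 5 members. In plasma none of the 30 passed the test with edgeR, with 0 at an unadjusted p under 0.05, and their median was -0.13 beside 0.25 over all names.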

How the data were processed

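Small RNA libraries were demultiplexed with bcl2fastq 2.20 per the labels, trimmed with Skewer and assigned by the authors to miRBase names of cow and human on the genome UMD3.1, with sRNAbench. The deposited library files give read counts per name, in which a read counts in full at each name, and estimated counts, for which the authors' software shared each multiply mapped read over its names. The deposited scaled reads, treated as a score, served only to recover the depth. The authors' normalized tables were not used.

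The estimated counts were rounded and tested with edgeR 4.0.16 in R 4.3.3 (quasi-likelihood with robust fitting, TMM, a model of cow and diet, at least 10 reads over all libraries per name, Benjamini-Hochberg adjustment, adjusted p under 0.05). DESeq2 1.42.0 was an alternative. Sample types were compared in 1 fit of all 14 libraries. Ratios were tested with exact sign-flip tests over cows. The scripts were tested on simulated data.

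Cows pair the diets. Leucocyte cows came from the labels. Plasma cows follow the authors' numbering, under which 504 of 504 read counts were equal to those of the study's supplementary table. Between diets, deviations of the same cow correlated at 0.454 to 0.664 in leucocytes and at -0.519 to 0.434 in plasma. For different cows this was -0.614 to 0.314 and -0.646 to 0.747, so the plasma profiles do not show the pairing, and plasma differences by cow rest on the numbering. Each cow gave 1 library per diet and sample type, so the spread between cows includes technical spread.

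The members and lists were chosen with earlier results of these data known. Named beside the members are, per member, up to 3 names of most similar pattern, and blood-cell miRNAs called in a diet comparison, at most 5 each way.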

Additional observations from a re-analysis of the deposited data

Results flagged for a closer look

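In 4 of 20 groups of 4 plasma libraries, 1 library stood apart from the other 3 by Dixon's test, where chance gives about 1 in 20. All 4 were cow 1 on HG. MiR-223 was at 20381 CPM there. The log2 ratios of adjusted counts in that library were 3.30 for miR-223/miR-150, 1.80 for miR-223/miR-142-5p and -1.32 for miR-150/miR-342. These values share miR-223 and miR-150, so they are not 4 separate events. The same library had the lowest erythrocyte share in plasma (7.95%) and the lowest vascular and platelet sum (28783 CPM, from 66601 on FD). Its liver marker miR-122 rose from 6662 CPM on FD to 33372 on HG, while in cows 2, 3 and 4 it was lower on HG (18783, 13441 and 25769 CPM, from 67018, 82795 and 51475). On FD too, cow 1 lay outside the range of the other cows for both. Its vascular and platelet sum there was above theirs (39005, 33393 and 37515 CPM in cows 2, 3 and 4), and its miR-122 was below theirs. The part of these in the values of miR-223 and miR-150 was not tested. Leucocyte groups hold 3 libraries each and were not tested in this way.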

How the results depend on the processing

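The members were lower or higher by amounts that small groups of 3 or 4 cows measure poorly, and the plasma libraries are far shallower than those of leucocytes. MiR-142-3p in leucocytes kept its direction in 14 of 14 alternatives and its call in 6. The causes of the shifts below were not tested. Names called in leucocytes were 15, against 25 with the DESeq2 Wald test, 9 with DESeq2 size factors, 50 with scaling to miR-103 and miR-107, 7 without erythrocyte names in the scaling, and 5 each with filterByExpr and with identical names taken once. The DESeq2 Wald test called 12 names in plasma and 28 in the difference of the diet effects, where edgeR called 0. With 1 cow left out, the names called were 0 to 102 in leucocytes, 86 to 258 for leucocytes against plasma on FD and 122 to 275 on HG. The fewest came without cow 3 in each, and the most in leucocytes without cow 4.

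Without the cow block, which drops the pairing of diets by cow, 0 names were called in leucocytes (45 at an unadjusted p under 0.05). The opposite sign was then seen at 0.045 for miR-142-3p in the difference of the diet effects, and at -0.63 for miR-142-3p and 0.0097 for miR-342 in plasma.

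Other settings turned the sign of these log2 fold changes. Without erythrocyte names in the scaling they were 0.063 for miR-142-3p and 0.0085 for miR-142-5p in the difference of the diet effects, 0.018 for miR-150 in leucocytes, 0.026 for miR-342 in plasma and -0.011 for miR-223 between sample types on FD. With library size only they were -0.40 for miR-150, -0.46 for miR-223 and -0.36 for miR-342 in the difference of the diet effects, 0.23 for miR-142-5p, 0.31 for miR-150 and 0.44 for miR-342 in plasma, and -0.47 (FD) and -0.92 (HG) for miR-223 between sample types. With scaling to miR-103 and miR-107 they were -0.18 for miR-150, -0.20 for miR-223 and -0.14 for miR-342 in the difference of the diet effects, -0.11 for miR-223 and -0.12 for miR-342 in leucocytes, and -0.057 for miR-142-3p and 0.056 for miR-342 in plasma. Between sample types the same scaling gave, on FD and HG, -0.14 and -0.69 for miR-142-3p, -0.31 and -0.93 for miR-142-5p, -0.38 and -0.57 for miR-150, -1.94 and -2.14 for miR-223, and -1.05 and -1.19 for miR-342. With filterByExpr they were -0.046 for both miR-150 and miR-223 in the difference of the diet effects and 0.094 for miR-342 in plasma. In plasma they were also -0.021 for miR-142-3p and 0.0037 for miR-342 with the DESeq2 Wald test, -0.020 and 0.0038 with DESeq2 size factors, 0.011 for miR-150 and 0.13 for miR-342 with undivided counts, 0.023 and 0.14 with identical names taken once, and 0.10 for miR-342 with no filter. Identical names taken once gave -0.076 for miR-223 between sample types on FD.

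With 1 cow left out, the difference of the diet effects was -1.26 to 0.46 for miR-142-3p, -0.49 to 0.12 for miR-142-5p, -0.34 to 0.84 for miR-150, -0.12 to 0.67 for miR-223 and -0.0048 to 0.66 for miR-342. The diet effect on miR-150 in leucocytes was -0.23 to 0.41. In plasma it was -0.55 to 0.82 for miR-142-3p, -0.38 to 0.10 for miR-142-5p, -0.24 to 0.16 for miR-150, -0.69 to 0.62 for miR-223 and -0.57 to 0.32 for miR-342. For log2 ratios, HG minus FD in leucocytes was -0.44 to 0.27 for miR-142-3p/miR-142-5p, -0.44 to 0.12 for miR-150/miR-342, -0.17 to 0.40 for miR-223/miR-150 and -0.064 to 0.15 for miR-223/miR-342. In plasma these were -0.60 to 1.05, -0.52 to 0.56, -0.68 to 0.77 and -0.12 to 0.44, and -0.32 to 0.77 for miR-223/miR-142-5p. Leucocytes minus plasma on FD was -1.04 to 0.83 for miR-142-3p/miR-142-5p and -0.21 to 0.90 for miR-150/miR-342, and on HG it was -0.30 to 1.01 for miR-142-3p/miR-142-5p.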
